A study of Mus musculus with 4 samples.

Results

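The acute phase and inflammatory signalling genes are a set of 36 liver genes made up of serum amyloids and other secreted proteins of the acute phase, the cytokine receptors and relays that control them, and a few cytokines. They were found as every array probe that was not a control and whose gene name was one of the 36 symbols, which gave 42 of 39429 probes and all 36 genes. Of these, 39 probes of 35 genes were bright enough to be tested, among 16081 genes tested in all. The member left out was Tnf, the inflammatory cytokine, whose probe was not well above background in any of the 8 RNAs.

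In the acute phase response, inflammatory cytokines act on the liver. Interleukin-6 (IL-6) binds its receptor and the shared chain gp130, which activates the transcription factor STAT3, while interleukin-1 and TNF act through NF-kappaB, and C/EBP factors act at many of the same promoters. Hepatocytes then secrete serum amyloid A, orosomucoids, haptoglobin and fibrinogen, and feedback inhibitors such as SOCS3, IkappaB alpha and A20 limit the signal.

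The RNA came from whole livers of female C57B/6 mice aged 8 to 10 weeks. Every mouse, control or not, carried the floxed Trib1 allele on both chromosomes. They received either AAV_Cre, a viral vector carrying the recombinase that excises floxed sequence, or the control vector AAV_Null, and livers were taken 1 week later after a fast of 4 hours in mice otherwise fed chow. Trib1 is a pseudokinase that brings C/EBP alpha to a ubiquitin ligase, and the study asked what its loss from the liver does. There were 4 two-colour arrays, each with 1 AAV_Cre RNA and 1 AAV_Null RNA, so that 8 RNAs were each measured once. The dyes were turned between arrays: Cy5 marked AAV_Cre RNA on arrays 1 and 2, and Cy3 marked it on arrays 3 and 4. The labels do not give the promoter that drives Cre, nor whether an RNA is from 1 mouse or a pool, and the p-values below measure only the spread between these RNAs. In whole liver, fewer cells of a type and less RNA per cell cannot be told apart.

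No spot of the 43020 on an array was saturated, and between 51.0% and 58.7% of spots in a channel were well above background. Trib1, by its probe at 59487475 to 59487534 of chromosome 15 (mm9), gave log2 ratios of AAV_Cre over AAV_Null of 0.64, 1.02, 1.09 and 1.01 on arrays 1 to 4. That goes against the label unless the probe lies outside the excised part, which the labels do not describe, so AAV_Cre and AAV_Null below are the names on the labels. Hepatocyte markers were bright in all 8 RNAs: the mean log2 intensity of 10 of them, from Alb to Serpina1a, lay between 16.14 and 16.68.

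The members' ratios were centred near 0, but they varied from array to array more than those of most genes. None of the 35 passed an adjusted p of 0.05 in limma (2.76% of all genes did, 1.78% higher and 0.976% lower in AAV_Cre). At an unadjusted p under 0.05 there were 6 of 35, against 22.6% of all genes: Mt2, Mt1 and Itih3 were lower in AAV_Cre, and Apcs, Saa4 and Nfkbia were higher. Their median log2 ratio was -0.043, beside -0.0025 for all genes. In contrast, the range of a gene's ratio, the highest minus the lowest of the 4 arrays in log2 units, had a median of 1.19 over the members and of 0.42 over all genes. The range was over 1 in 21 of 35 members, against 6.80% of all genes.

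**Figure D1:**
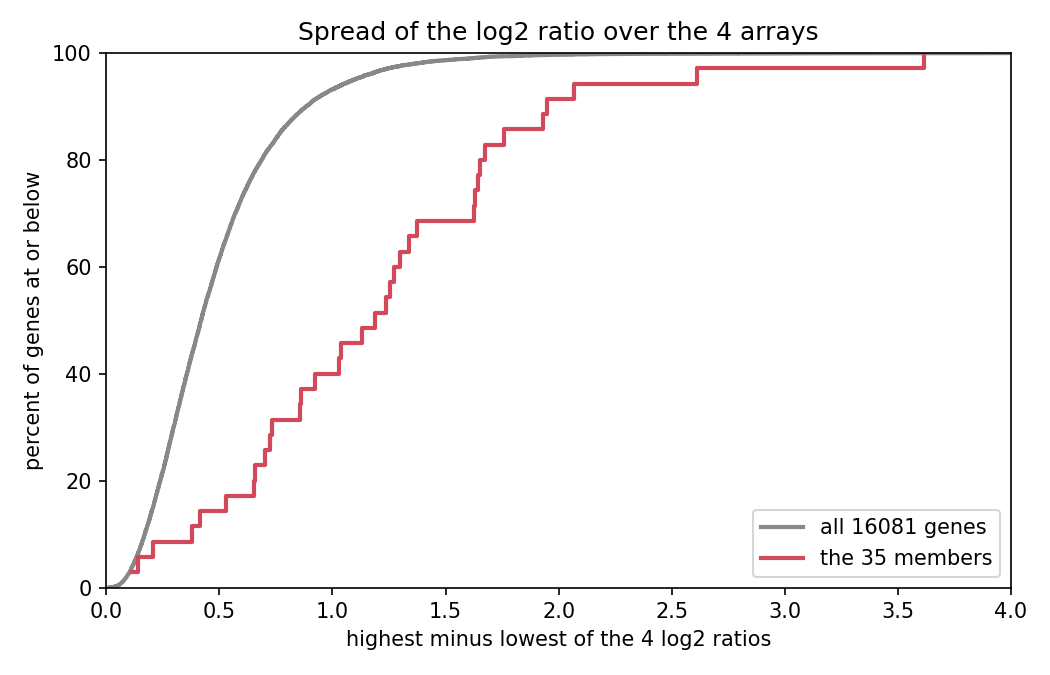
Cumulative share of genes (y axis, percent) against the range of the log2 ratio over the 4 arrays (x axis, log2 units), for the 35 members (red) and all 16081 genes (grey). The members' curve lies to the right of the other for most of its length, with medians of 1.19 and 0.42.

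Array 3 gave most members their highest ratio. The median log2 ratio of the 35 members was -0.19, -0.14, 0.40 and -0.30 on arrays 1 to 4, while that of all genes stayed between -0.024 and 0.022. On array 3 the ratio was above 0 for 30 of 35 members (53.3% of all genes), and on array 4 for 7 of 35 (52.3%). It was the highest of the 4 ratios in 30 members, against 30.5% of all genes. A pattern of 3 ratios below 0 and only that of array 3 above it was seen in 14 members, against 7.63% of genes.

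The spread lay between arrays of 1 dye orientation, and mainly in 1 of the pairs. Arrays 3 and 4 carried AAV_Cre in the same dye, yet their ratios differed by over 1 log2 unit in 16 of 35 members (1.36% of all genes). Arrays 1 and 2, which also shared an orientation, differed by that much in 0 of 35 members (0.292%). The median absolute difference was 0.86 between arrays 3 and 4 and 0.19 between arrays 1 and 2, and over all genes it was 0.14 and 0.13.

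**Figure D2:**
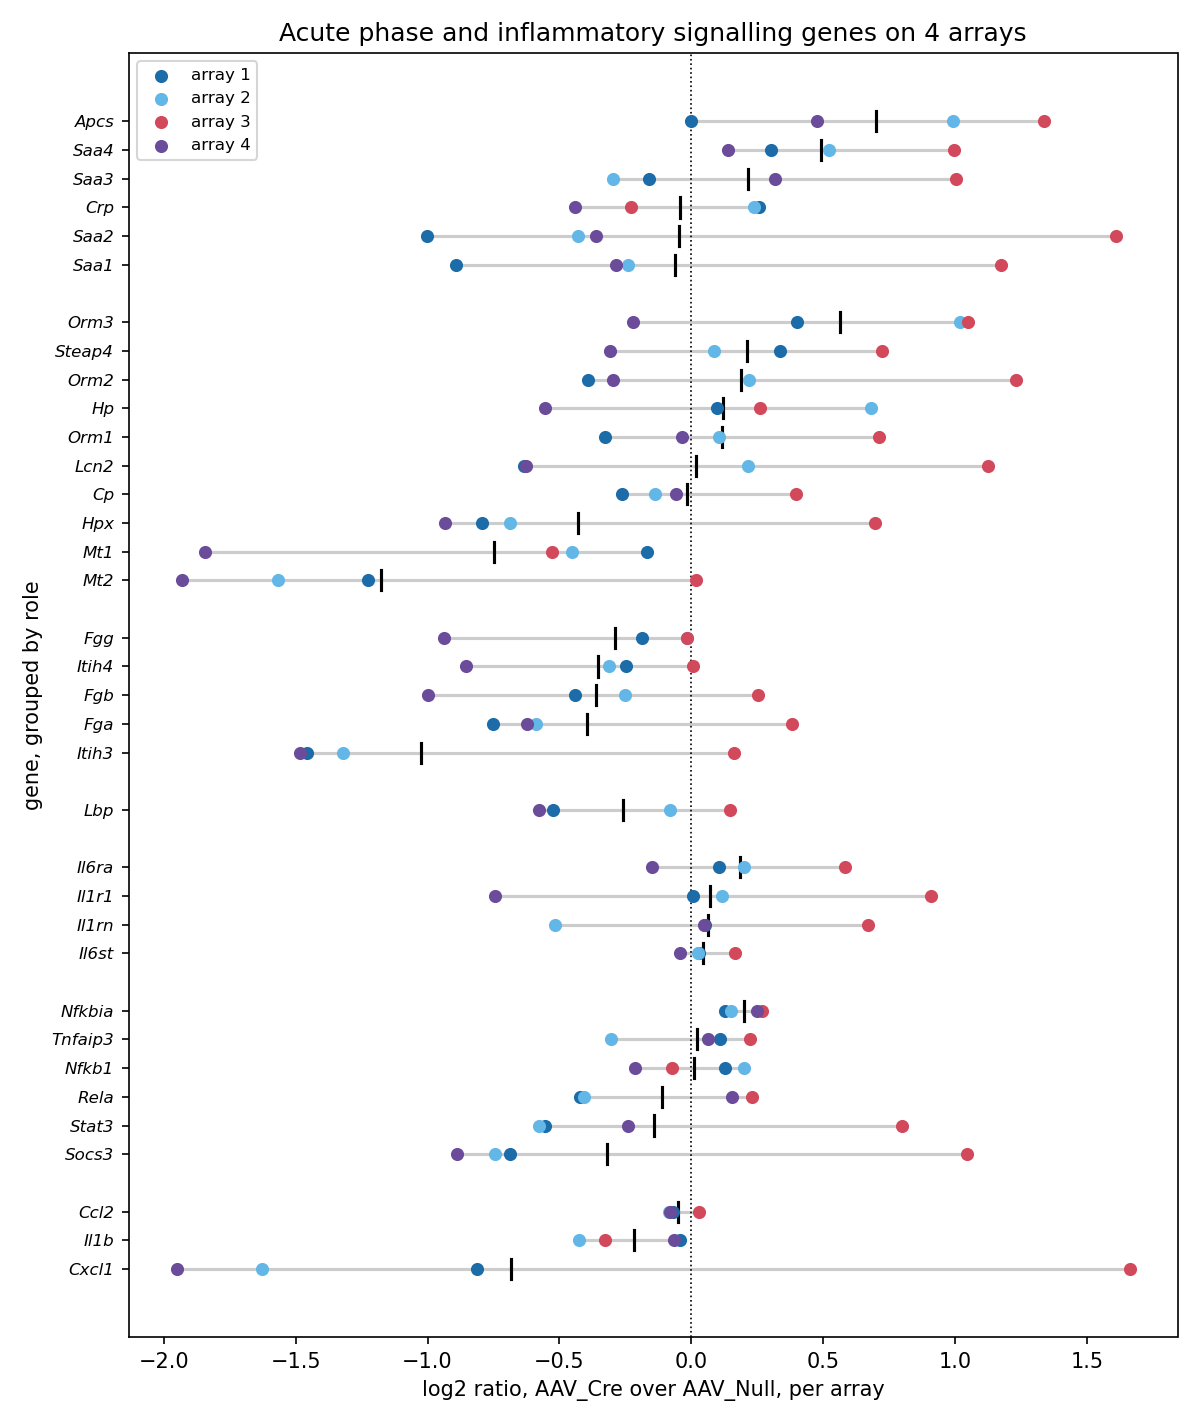
Log2 ratio of AAV_Cre over AAV_Null (x axis) of each of the 35 members (y axis, grouped by role in the order of the text) on arrays 1 to 4 (coloured points), with the fitted ratio as a black tick and the range as a grey bar. Array 3 (red) is the highest point in 30 members, and the fitted ticks of many members lie near 0.

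Serum amyloid A and the pentraxins are secreted proteins, of which Saa1 and Saa2 are the classic inducible amyloids of the liver. Upstream of both genes the DNA is alike, with a longest shared run of 65 bases, and both hold the C/EBP motif TTNNGNAA. Their promoters are shown first, since these genes had the widest spread of signal over the 8 RNAs among the members. Each run is the 250 bases before the RefSeq start site in GRCm38.p6, written 5′ to 3′ on the strand of the gene, with the C/EBP match in capitals. Saa1 is at chr7:46742981-46743230, minus strand, and Saa2 at chr7:46751583-46751832, plus strand.
Saa1 promoter: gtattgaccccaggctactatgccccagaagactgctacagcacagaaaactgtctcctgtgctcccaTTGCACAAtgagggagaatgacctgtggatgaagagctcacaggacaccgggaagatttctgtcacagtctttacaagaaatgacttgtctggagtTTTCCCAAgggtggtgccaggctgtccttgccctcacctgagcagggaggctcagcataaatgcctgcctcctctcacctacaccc
Saa2 promoter: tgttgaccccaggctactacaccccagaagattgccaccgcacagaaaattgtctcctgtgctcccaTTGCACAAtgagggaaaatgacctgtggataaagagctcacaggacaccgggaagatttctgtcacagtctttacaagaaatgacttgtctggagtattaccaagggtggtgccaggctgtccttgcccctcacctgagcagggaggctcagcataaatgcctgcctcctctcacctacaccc
The matches begin 182 and 86 bases before the start of Saa1 and 183 bases before that of Saa2.

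Each of these genes was read by 1 probe of 60 bases, and the last 30 bases of each are given to show that the probes are different although the genes are close copies. Capitals mark AATAAA, the hexamer of many polyadenylation signals, where it occurs. On mm9 the Saa1 probe is at 53996070 to 53996129 and the Saa2 probe at 54009622 to 54009681 of chromosome 7.
Saa1 probe end: ctcctggcctgcctgacaaatactgagcgt
Saa2 probe end: gagagggtAATAAAcaggaacttggaagtg
No 2 probes of the 4 Saa genes shared a run of more than 6 bases. Whether a probe also binds the transcript of another copy was not tested, so the signal of a single copy is uncertain.

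Saa2 had log2 intensities of 16.29, 13.68, 17.68 and 16.34 in the AAV_Cre RNAs of arrays 1 to 4 and of 17.29, 14.11, 16.07 and 16.70 in the AAV_Null RNAs. The highest of the 8 was the AAV_Cre RNA of array 3 and the lowest was the AAV_Cre RNA of array 2, a 16.0-fold span, and the groups overlapped. Its ratios were -1.002, -0.43, 1.61 and -0.36, which gave a fitted log2 ratio of -0.046 ± 0.34 (SE, n = 4 arrays) at an adjusted p of 0.951 in limma.

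In its intensities Saa1 followed the same order of arrays within each treatment. Its log2 intensities were 15.65, 12.93, 16.78 and 15.72 in AAV_Cre and 16.54, 13.17, 15.60 and 16.00 in AAV_Null, a span of 14.4-fold with the same RNAs at the top and the bottom. The ratios were -0.89, -0.24, 1.18 and -0.29, and the fitted ratio was -0.060 ± 0.27 (SE, n = 4). Both RNAs of array 2 were low: the mean of the pair lay 2.998 log2 units below the mean of the other arrays for Saa1 and 2.83 below it for Saa2.

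The other 4 genes of this group spanned less. Apcs, the serum amyloid P component and the main acute phase pentraxin of the mouse, had log2 intensities of 10.81, 11.07, 11.91 and 11.36 in AAV_Cre and 10.81, 10.08, 10.58 and 10.89 in AAV_Null. Its ratios of -0.00046, 0.99, 1.34 and 0.48 made it the member with the highest fitted ratio, 0.70 ± 0.22 (SE, n = 4), with an unadjusted p of 0.0271 and, in limma, an adjusted p of 0.165. Saa4, the constitutive serum amyloid of the liver, was above 0 on every array with 0.30, 0.52, 1.00 and 0.14, and fitted at 0.49 ± 0.15 (SE, n = 4; adjusted p = 0.162 in limma). Saa3, an amyloid also made outside hepatocytes, had -0.16 and -0.30 on arrays 1 and 2 and 1.00 and 0.32 on arrays 3 and 4. Its sign thus split by dye orientation, and the dye effect in the fit was -0.44, beside a fitted ratio of 0.22. Crp, C-reactive protein, had 0.26 and 0.24 on arrays 1 and 2 and -0.23 and -0.44 on arrays 3 and 4, a split by dye orientation that the fit takes as a dye effect.

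Among the orosomucoids and the binders of haem, iron and metal, the metallothioneins were the members with the lowest ratios. Mt1 and Mt2 encode small cysteine-rich proteins that hold zinc and copper and are induced by metals, glucocorticoids and IL-6. The promoter of Mt2 is given because Mt2 had the largest fitted difference of all members. Capitals show the 1 match to TGCGCNC, the form of the metal response element core that was searched, 128 bases before the start. Other forms of the core were not searched and are not marked. It is the 250 bases at chr8:94172368-94172617, plus strand, GRCm38.p6.
Mt2 promoter: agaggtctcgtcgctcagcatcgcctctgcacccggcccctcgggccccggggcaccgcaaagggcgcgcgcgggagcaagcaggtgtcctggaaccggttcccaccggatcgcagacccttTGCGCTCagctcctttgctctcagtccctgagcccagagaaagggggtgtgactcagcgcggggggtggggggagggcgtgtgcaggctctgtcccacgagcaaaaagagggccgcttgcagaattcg
The C/EBP motif was also found in it on the opposite strand, 12 bases before the start.

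Mt2 had log2 intensities of 16.84, 16.39, 17.27 and 16.21 in AAV_Cre and of 18.06, 17.96, 17.25 and 18.14 in AAV_Null, with means of 16.68 ± 0.48 and 17.86 ± 0.41 (SD, n = 4 each). The AAV_Cre RNAs of arrays 1, 2 and 4 lay below every AAV_Null RNA, and the groups overlapped only on array 3, where both RNAs were level. Ratios were -1.22, -1.57, 0.019 and -1.93, and the fitted ratio was -1.18 ± 0.33 (SE, n = 4), or 2.26-fold lower, with limma's adjusted p at 0.138. Without array 3 it was -1.66, without array 4 -0.69, without array 1 -1.26 and without array 2 -1.09. Each of these fits keeps a single array of 1 dye orientation. The spread of the gene then comes only from the difference between the 2 arrays of the other orientation, so the fit does not measure agreement of all arrays kept.

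Mt1 had 2 probes, and both had their lowest ratio on array 4. Their last 30 bases and that of Mt2 are shown because the probes read different stretches of the locus, with AATAAA in capitals. On mm9 the brighter Mt1 probe is at 96704165 to 96704224, the dimmer at 96703844 to 96703903 and the Mt2 probe at 96697371 to 96697430, all on chromosome 8.
Mt1 brighter probe end: gtacgtgaatAATAAAagcctgtttgagtc
Mt1 dimmer probe end: cggaggccattgtattgtctcggggacaga
Mt2 probe end: ctcgttctccacaactttttctataaagca
The brighter probe, which stood for the gene, had ratios of -0.17, -0.45, -0.53 and -1.84, and the dimmer had -0.53, -0.61, -0.17 and -0.72. On array 4 they differed by more than 1 log2 unit. Both probes were below 0 on 4 of 4 arrays, with fitted ratios of -0.75 ± 0.23 and -0.51 ± 0.10 (SE, n = 4 each), and the adjusted p of the gene was 0.154 in limma. By the brighter probe Mt1 had log2 intensities of 18.19, 17.85, 17.63 and 16.51 in AAV_Cre and 18.36, 18.30, 18.15 and 18.35 in AAV_Null, so that the lowest AAV_Cre RNA was that of array 4.

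Lcn2, lipocalin 2, which binds bacterial iron carriers, had log2 intensities of 13.22, 11.34, 13.29 and 13.07 in AAV_Cre and 13.85, 11.13, 12.17 and 13.70 in AAV_Null. As with Saa1 and Saa2, both RNAs of array 2 were the lowest, 1.98 log2 units below the other arrays as a pair. Its ratios of -0.64, 0.21, 1.12 and -0.63 fitted to 0.018 ± 0.32 (SE, n = 4), and the groups overlapped.

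Hpx, hemopexin, the plasma binder of free haem, had log2 intensities of 16.47, 16.28, 16.88 and 16.04 in AAV_Cre and 17.26, 16.97, 16.18 and 16.98 in AAV_Null. On array 3 the order of the treatments was turned. The ratios were -0.80, -0.69, 0.70 and -0.93, with a fitted -0.43 ± 0.27 (SE, n = 4) at an adjusted p of 0.412 in limma.

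Orm2, one of 3 orosomucoid genes that lie together on chromosome 4 and encode drug-binding plasma proteins, had log2 intensities of 13.63, 13.40, 14.43 and 14.05 in AAV_Cre and 14.02, 13.18, 13.20 and 14.34 in AAV_Null. Its highest RNA was again the AAV_Cre RNA of array 3. The ratios were -0.39, 0.22, 1.23 and -0.30 for Orm2 and -0.33, 0.11, 0.71 and -0.036 for Orm1. Orm3 had 0.40, 1.02, 1.05 and -0.22 and the highest fitted ratio of the 10 genes in this role, 0.56 ± 0.24 (SE, n = 4; adjusted p = 0.255 in limma). The Orm probes shared no run of more than 7 bases, and the signal of a single copy is uncertain as for the Saa genes.

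Hp, haptoglobin, the binder of free haemoglobin, had a fitted ratio of 0.12, Cp, the copper ferroxidase ceruloplasmin, had -0.014, and Steap4, a metalloreductase, had 0.21. All 3 were highest or second highest on array 3. Within this role the range was over 1 log2 unit in 9 of 10 genes, Cp being the exception at 0.66.

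**Figure D3:**
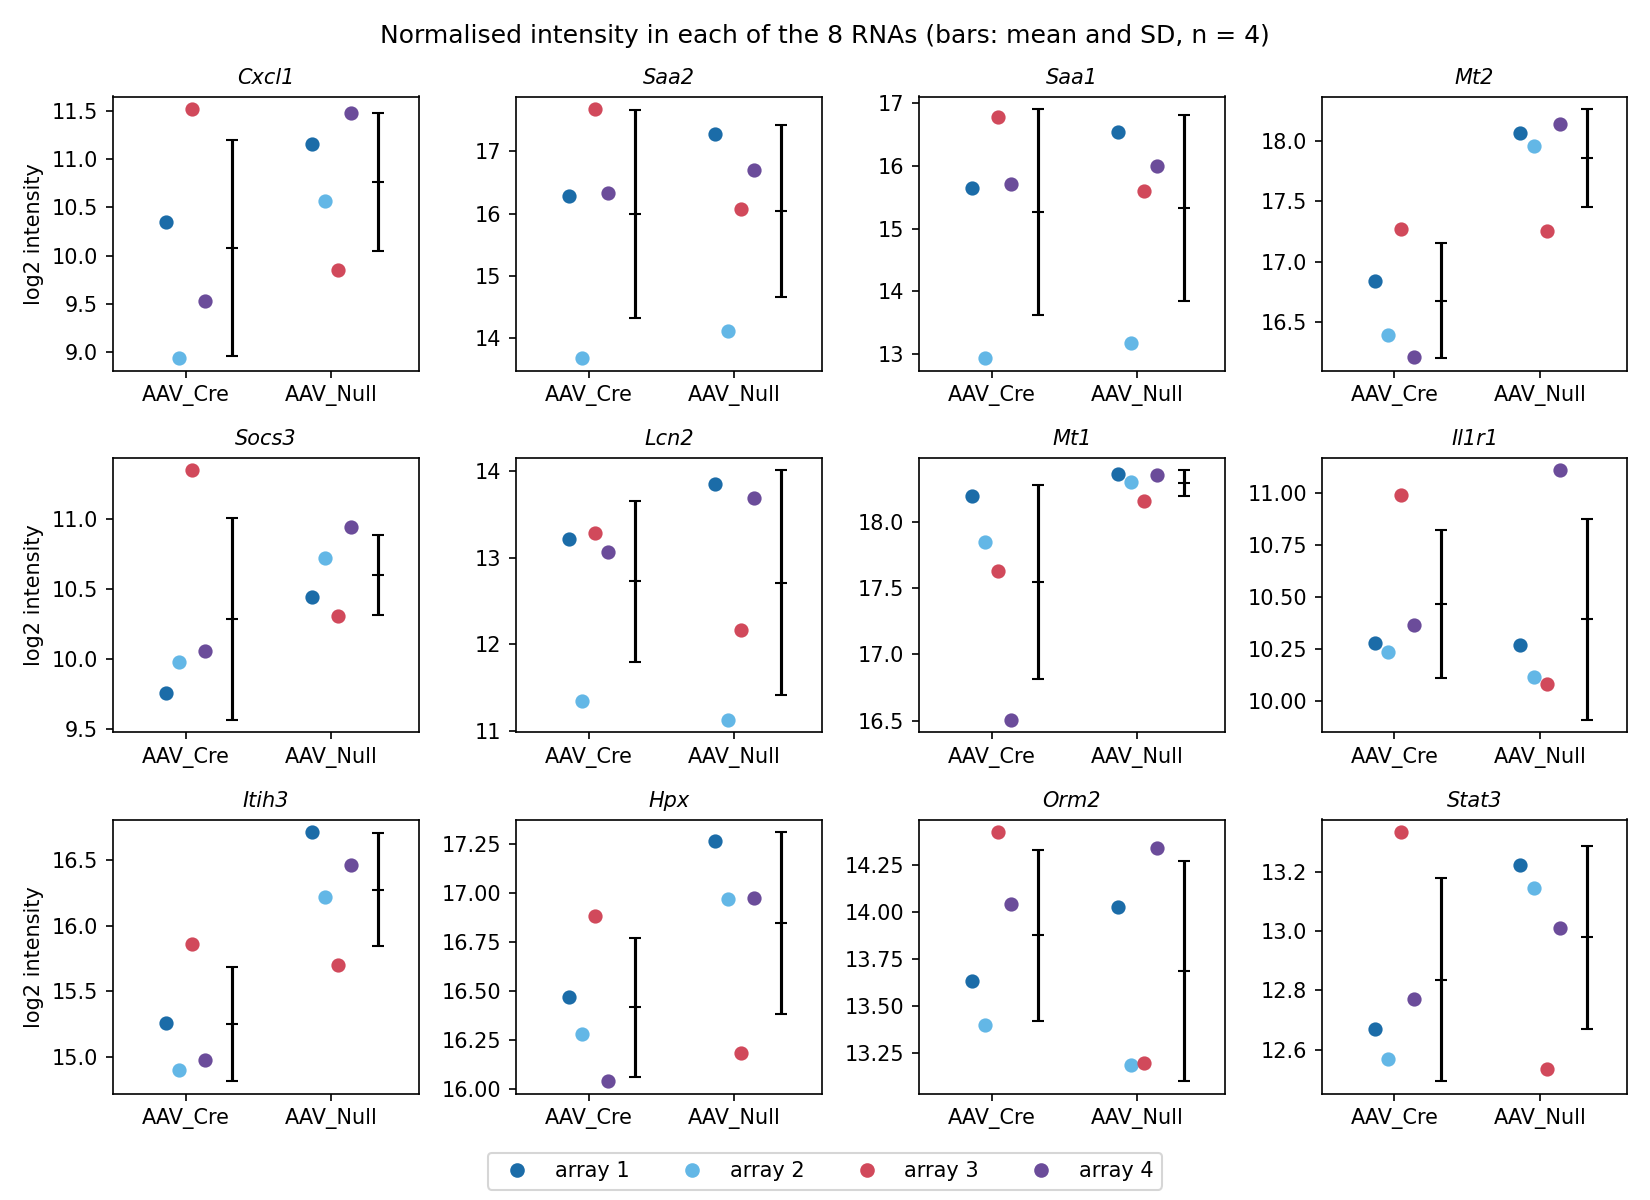
Normalised log2 intensity (y axes) of the 12 members of widest range in the 4 AAV_Cre and 4 AAV_Null RNAs (x axes), coloured by array, with the mean and SD (n = 4) as bars. For Saa1, Saa2 and Lcn2 both RNAs of array 2 are lowest, for Mt2 and Itih3 array 3 is the array where the treatments meet, and for Cxcl1 and Socs3 they trade places there.

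All 5 genes of clotting and matrix had fitted ratios below 0, between -1.02 for Itih3 and -0.29 for Fgg, and none passed. Itih3 encodes a heavy chain of the inter-alpha-trypsin inhibitor, which is linked to hyaluronan. Its log2 intensities were 15.26, 14.90, 15.86 and 14.98 in AAV_Cre and 16.71, 16.22, 15.70 and 16.46 in AAV_Null. Every AAV_Cre RNA but that of array 3 lay below the 4 AAV_Null RNAs. With ratios of -1.46, -1.32, 0.16 and -1.48, Itih3 fitted at -1.02 ± 0.27 (SE, n = 4), 2.03-fold lower, with limma's adjusted p at 0.130. Leaving out array 3 gave -1.44, leaving out array 4 -0.61, leaving out array 1 -0.99 and leaving out array 2 -1.06. As for Mt2, the spread in each of these fits came only from 1 pair of arrays of the same dye orientation.

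Fibrinogen is built from chains encoded by Fga, Fgb and Fgg, which are neighbours on chromosome 3. Fga had ratios of -0.75, -0.59, 0.38 and -0.62, and Fgb had -0.44, -0.25, 0.25 and -0.999. Fgg was below 0 on 4 of 4 arrays, with -0.19, -0.016, -0.015 and -0.94. Their fitted ratios were -0.40 ± 0.17, -0.36 ± 0.21 and -0.29 ± 0.16 (SE, n = 4 each). A second, dimmer Fga probe lay higher on every array, at -0.25, -0.16, 0.78 and -0.31, and fitted at 0.014, so the sign of the fitted Fga ratio depended on the probe. Itih4, a plasma protein of the same inhibitor family, had -0.35 ± 0.15 (SE, n = 4) on its brighter probe and -0.24 on the other.

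Lbp, the plasma protein that hands bacterial lipopolysaccharide to its receptor, had ratios of -0.52, -0.080, 0.15 and -0.58 and a fitted -0.26 ± 0.15 (SE, n = 4). The treatments were close on arrays 2 and 3, and the groups overlapped.

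The fitted ratios of the receptors and the antagonist lay between 0.046 and 0.19. Il1r1, the signalling receptor of interleukin-1, had log2 intensities of 10.28, 10.24, 10.99 and 10.36 in AAV_Cre and 10.27, 10.12, 10.08 and 11.11 in AAV_Null. Just 1 RNA stood high in each treatment, that of array 3 in AAV_Cre and that of array 4 in AAV_Null. Ratios of 0.0075, 0.12, 0.91 and -0.74 fitted to 0.073 ± 0.28 (SE, n = 4). Il1rn, the secreted antagonist of that receptor, was dim and fitted at 0.064. Il6ra, the IL-6 receptor, fitted at 0.19 ± 0.13 (SE, n = 4), and Il6st, which encodes gp130, at 0.046 ± 0.059. The range of Il6st was 0.21 log2 units, and 15.2% of all genes had a narrower one. Array 3 gave all 4 of these genes their highest ratio.

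Of the 6 genes of signal relay and feedback, Socs3 and Stat3 had the widest ranges by the probes that stood for them, and Nfkbia had the narrowest. Socs3, the feedback inhibitor that STAT3 induces, is shown with its promoter because it was the signalling member of widest range. The run is chr11:117969367-117969616, minus strand, GRCm38.p6, with the 1 match to the STAT motif TTCNNNGAA in capitals, 154 bases before the start.
Socs3 promoter: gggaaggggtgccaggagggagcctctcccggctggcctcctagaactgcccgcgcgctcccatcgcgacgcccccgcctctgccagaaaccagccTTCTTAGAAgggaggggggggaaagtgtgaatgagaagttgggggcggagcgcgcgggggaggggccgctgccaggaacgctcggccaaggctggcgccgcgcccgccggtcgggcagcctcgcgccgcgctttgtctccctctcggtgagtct
Socs3 had log2 intensities of 9.76, 9.98, 11.35 and 10.06 in AAV_Cre and 10.44, 10.72, 10.31 and 10.94 in AAV_Null. The AAV_Cre RNA of array 3 was the highest of the 8, and the other AAV_Cre RNAs were the 3 lowest. Its ratios of -0.69, -0.74, 1.05 and -0.89 fitted to -0.32 ± 0.32 (SE, n = 4; adjusted p = 0.601 in limma). The fitted ratio was -0.80 without array 3 and 0.17 without array 4, so its sign turned with the array left out.

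Stat3 itself had log2 intensities of 12.67, 12.57, 13.33 and 12.77 in AAV_Cre and 13.22, 13.15, 12.53 and 13.01 in AAV_Null, with the AAV_Cre RNA of array 3 highest and the AAV_Null RNA of the same array lowest. The ratios were -0.55, -0.58, 0.80 and -0.24, with a fitted -0.14 ± 0.18 (SE, n = 4). A second Stat3 probe of much lower intensity had -0.073, -0.28, 0.28 and -0.053.

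Nfkbia encodes IkappaB alpha, which holds NF-kappaB in the cytoplasm and is itself an NF-kappaB target. It had ratios of 0.13, 0.15, 0.27 and 0.25, above 0 on 4 of 4 arrays, and a range of 0.14, with only 6.29% of all genes below it. Its fitted ratio was 0.20 ± 0.049 (SE, n = 4), or 1.15-fold, with limma's adjusted p at 0.112, the lowest of all members. Tnfaip3, which encodes the ubiquitin-editing inhibitor A20, fitted at 0.023, Nfkb1, the p105 and p50 subunit, at 0.011, and Rela, the p65 subunit, at -0.11. Rela had -0.42 and -0.41 on arrays 1 and 2 and 0.23 and 0.15 on arrays 3 and 4, a split by dye orientation.

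Of the cytokines, Cxcl1 had the widest range of all members, and Il1b and Ccl2 had narrow ones. Cxcl1 is a chemokine that draws neutrophils and a target of NF-kappaB. Its promoter is given for that reason, at chr5:90890995-90891244, plus strand, GRCm38.p6, with matches to the kappaB motif on either strand in capitals, at 89 and 71 bases before the start.
Cxcl1 promoter: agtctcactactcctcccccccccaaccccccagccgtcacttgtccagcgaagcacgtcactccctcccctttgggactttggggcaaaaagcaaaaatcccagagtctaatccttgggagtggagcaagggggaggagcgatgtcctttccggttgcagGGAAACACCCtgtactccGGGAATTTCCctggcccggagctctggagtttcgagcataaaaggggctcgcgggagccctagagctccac
Cxcl1 had log2 intensities of 10.34, 8.94, 11.52 and 9.53 in AAV_Cre and 11.16, 10.57, 9.86 and 11.48 in AAV_Null. Array 3 turned the order: its AAV_Cre RNA was the highest of the 8 and its AAV_Null RNA the lowest of the AAV_Null group. The ratios were -0.81, -1.63, 1.66 and -1.95, a 12.2-fold span between arrays, and the fitted ratio was -0.68 ± 0.61 (SE, n = 4) at an adjusted p of 0.554 in limma. It was -1.59 without array 3 and 0.22 without array 4, which turned the sign.

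Il1b, which encodes interleukin-1 beta, was dim, with log2 intensities between 6.99 and 7.97. It was below 0 on 4 of 4 arrays, at -0.045, -0.42, -0.33 and -0.066, and fitted at -0.22 ± 0.090 (SE, n = 4; adjusted p = 0.251 in limma). Ccl2, the monocyte chemokine, was as dim and had the narrowest range of the members, with -0.071, -0.084, 0.030 and -0.081.

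Leaving out array 3 lowered the fitted ratio of most members. With a dye effect in the fit, leaving out array 3 or array 4 moves a ratio only by the difference between these arrays. The shifts below therefore restate that difference and are not a further result. A fit without array 3 or array 4 keeps a single array of that dye orientation, so the spread of each gene comes only from arrays 1 and 2. Passing in such a fit therefore does not measure agreement of all arrays kept. Without array 3, 29 of 35 members had a fitted ratio below 0, against 19 with all 4 arrays, and the median log2 ratio was -0.15. Of the 35, Itih3 and Mt2 then passed, among 37 of 15798 genes (0.234%), and 16 of 35 had an unadjusted p under 0.05, beside 19.9% of genes. Leaving out array 4 instead gave a median of 0.12, with 12 members below 0. Then limma called 0 members and 0 of 15794 genes, and 13 of 35 members were at an unadjusted p under 0.05, beside 20.9%. Other treatments of the same 4 arrays also brought members past the threshold. A fit on the separate channels called 4 of 35, Apcs, Itih3, Mt1 and Mt2, a lower share than the 16.0% of all genes called. Median centring in place of loess also called 4 of 35, Apcs, Itih3, Mt2 and Saa4, beside 4.70% of all genes. Neither array 3 nor array 4 is marked as faulty by the labels.

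**Figure D4:**
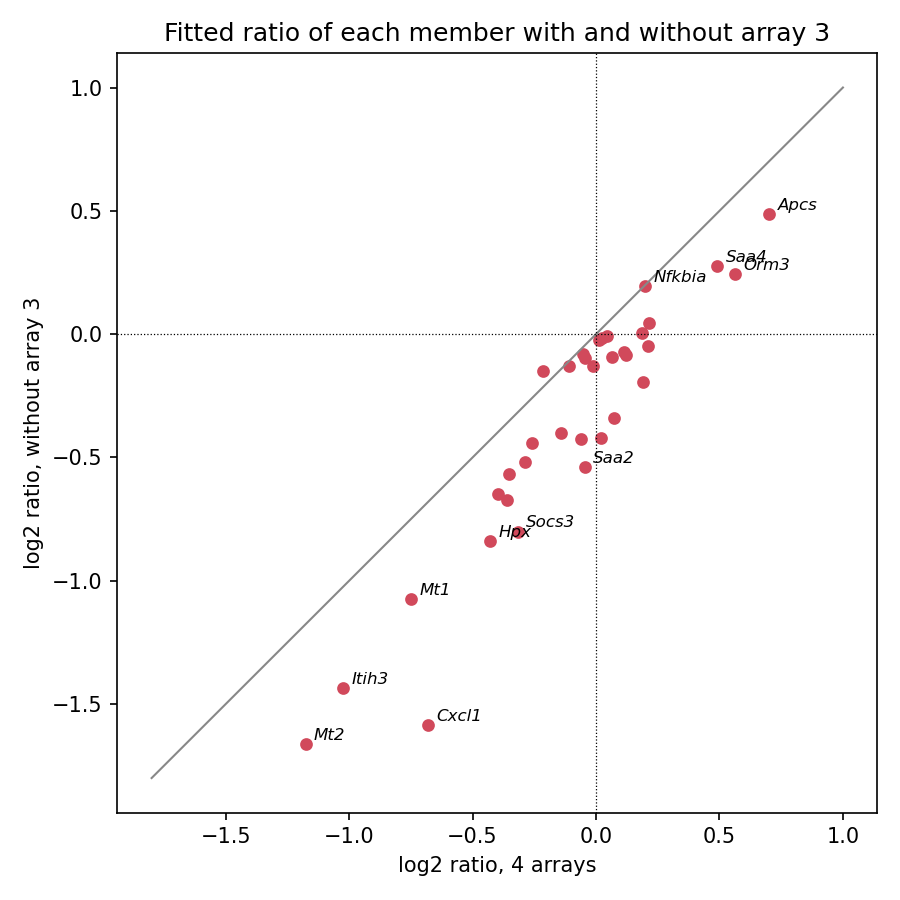
Fitted log2 ratio of each of the 35 members without array 3 (y axis) against that from 4 arrays (x axis), with the line of equality in grey. Most points lie below the line, and Mt2 and Itih3 move from -1.18 and -1.02 to -1.66 and -1.44. The distance of a point from the line depends only on the difference between its ratios on arrays 3 and 4.

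Each of the 8 RNAs was then set against the others. In no member were the 4 AAV_Cre RNAs all above or all below the 4 AAV_Null RNAs, while 2.67% of genes were wholly lower and 3.20% wholly higher in AAV_Cre. The AAV_Cre RNA of array 3 was the highest of the 8 in 11 of 35 members (13.2% of genes), the AAV_Null RNA of array 1 in 9 (10.0%) and the AAV_Null RNA of array 4 in 8 (11.6%). The AAV_Null RNA of array 2 was the lowest in 11 (8.41%), the AAV_Cre RNA of array 4 in 9 (12.1%) and the AAV_Cre RNA of array 2 in 7 (14.4%). As a pair, the RNAs of array 2 had the lowest mean in 21 of 35 members (21.7%). From the scanner's own processed signals the first count was 7 and the count for the AAV_Null RNA of array 2 was 7.

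Other genes of these pathways were taken from 4 lists, of which 72 of 85 genes were bright enough to be tested. In limma 0 rose and 2 fell, a count near the share of all genes called (2.76%, with 1.78% higher and 0.976% lower). Both were in the list of negative acute phase genes, genes whose products decline in inflammation. Cebpa, which encodes the C/EBP alpha of the study's title, had ratios of -0.76, -0.82, -0.51 and -0.27 and fitted at -0.59 ± 0.064 (SE, n = 4; adjusted p = 0.0298). Trf, transferrin, had 0.27 and 0.33 on arrays 1 and 2 but -1.18 and -1.51 on arrays 3 and 4, so that its call, at -0.52 ± 0.073 (SE, n = 4; adjusted p = 0.0446), joined opposite signs in the 2 dye orientations. Alb, albumin, showed the same split, with 0.39, 0.27, -0.95 and -1.27. Neither passed with any 1 array left out, but those fits called few genes or none over all genes. Not passing there therefore says little about Cebpa or Trf.

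The 18 tested genes of the other positive acute phase list followed the members by array, with medians of -0.19, -0.15, 0.36 and -0.21. S100a9, a calcium-binding protein abundant in neutrophils, had the widest range, with -0.75, -1.15, 1.54 and -1.59. Its partner S100a8 had -0.65, -1.11, 1.17 and -1.65. The order of arrays was that of Cxcl1.

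In the list of the IL-6 and STAT3 pathway, 16 of 19 genes were tested and 0 passed. Socs2 and Cish, feedback inhibitors of cytokine and growth hormone receptors, had the widest ranges, with -1.07, -1.37, 0.68 and -0.51 for Socs2 and -0.72, -1.17, 0.66 and -0.12 for Cish. In the list of the IL-1, TNF and NF-kappaB pathway, 29 of 37 were tested and 0 passed. Zfp36, which destabilises cytokine messages, had 0.40, 0.74, 0.068 and -0.47, and Nfkb2, the p100 subunit, had -0.65, -0.20, 0.55 and 0.0074. The median range was 0.67 in the first of these lists and 0.56 in the second, beside 1.19 for the members. Wide ranges were not particular to the members: the median was 1.31 over the interferon-stimulated genes, 1.07 over the negative acute phase genes, 1.03 over the Kupffer cell and macrophage markers and 0.76 over the other positive acute phase genes. The kind of spread differed between lists. In the same order, the median absolute difference between arrays 3 and 4 was 1.26, 0.31, 0.91 and 0.65, beside 0.86 for the members.

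Some lists of immune markers had, as the members did, a median above 0 on array 3 alone, and others did not. The 12 Kupffer cell and macrophage markers, all tested, had medians of -0.33, -0.23, 0.33 and -0.64 on arrays 1 to 4, with 0 called and 10 of 12 highest on array 3. Of 10 neutrophil markers 8 were tested, without Cxcr2 and Ngp, and their medians were -0.31, -0.25, 0.60 and -0.49, with 6 of 8 highest on array 3. Elane, neutrophil elastase, ran the other way, with 0.30, 0.39, -0.37 and -0.40. All 4 B cell markers were tested, with medians of -0.19, -0.27, 0.29 and -0.28 and 3 of 4 highest on array 3. Of 20 interferon-stimulated genes 19 were tested, without Ifit2, and their medians were -0.30, -0.39, 0.58 and -0.62, with 19 of 19 highest on array 3.

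The mean log2 intensity of the Kupffer and macrophage list lay between 10.50 and 11.33 in the AAV_Cre RNAs and between 10.81 and 11.51 in the AAV_Null RNAs. That of the neutrophil list lay between 9.56 and 10.20 and between 9.57 and 10.43. Cd5l, a macrophage marker, had ratios of -0.90, -0.78, 0.73 and -0.78. Of 9 T and NK cell markers 4 were tested, and their medians of 0.047, -0.017, -0.092 and -0.19, with 1 of 4 highest on array 3, did not follow the members. The hepatocyte markers did not follow either, with medians of 0.22, 0.13, -0.12 and -0.42. The part of these cells and of the interferon response in the members' spread was not tested.

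**Figure D5:**
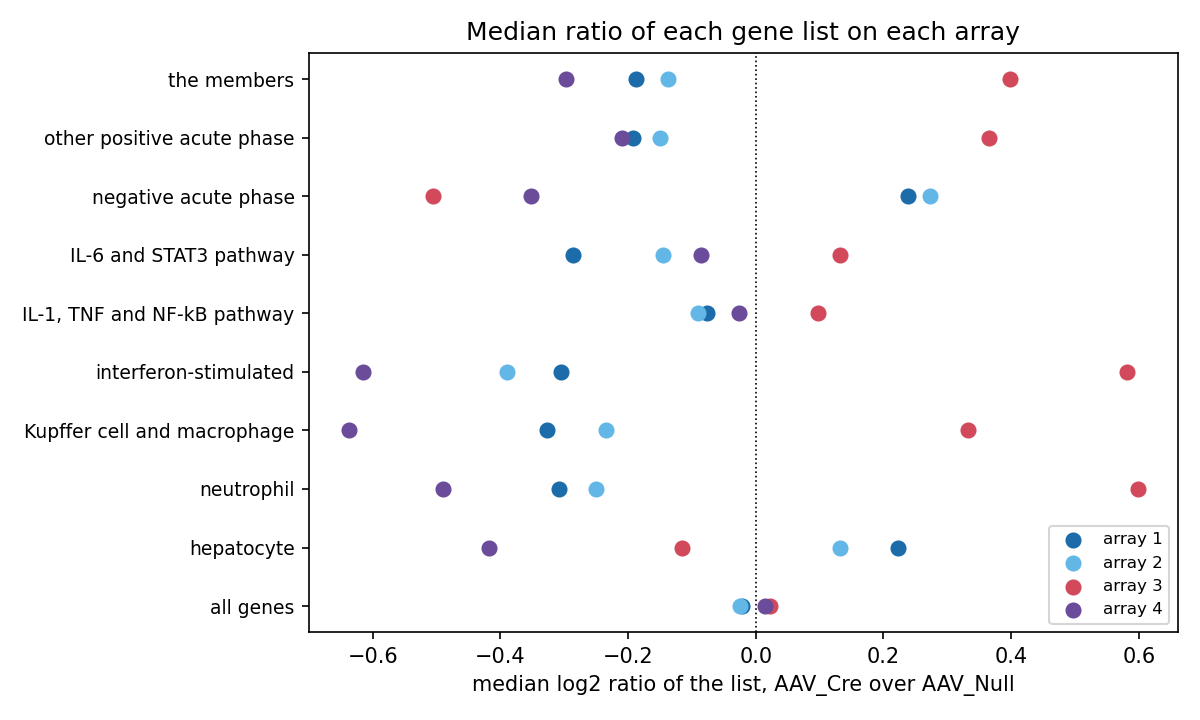
Median log2 ratio of AAV_Cre over AAV_Null (x axis) of the members, the 4 other pathway lists, 4 marker lists and all genes (y axis) on arrays 1 to 4 (coloured points). For the members, the other positive acute phase list and the interferon, Kupffer and neutrophil lists only array 3 lies above 0, while the negative acute phase and hepatocyte lists part by dye orientation.

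The promoters of 31 members are in the RefSeq table, and 4 motifs were searched on both strands of the 250 bases before the start. C/EBP (TTNNGNAA) was present in 21 of 31, against 40.3% of 27025 genes with a promoter there, and in every Saa gene. STAT (TTCNNNGAA) was present in 6, Apcs, Fga, Fgb, Itih4, Socs3 and Steap4, against 8.13%, and kappaB in 5, Cxcl1, Il1rn, Nfkbia, Steap4 and Tnfaip3, against 1.65%. The only form of the metal response element core that was searched (TGCGCNC) was found in Fgg and Mt2, and in 14.0% of genes. Matches of 2 motifs overlapped only in Steap4, and a match is a description of letters, not a binding site. Among the genes with a kappaB match the range of the ratio ran from 0.14 in Nfkbia to 3.61 in Cxcl1.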

How the data were processed

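Spot intensities of both dyes and local backgrounds were deposited by the authors as Agilent Feature Extraction 11.5.1.1 output, per the file headers. That output also holds the log10 of the Cy5 to Cy3 ratio, per the file headers. The authors deposited log2 values as a separate table too, with unknown normalisation. Against the scanner log10 ratio its slopes were 3.34, 3.33, -3.29 and -3.39 on arrays 1 to 4 (log2 of 10 is 3.32), so it is on a log2 scale as AAV_Cre over AAV_Null, and its column medians were -0.022, -0.038, 0.035 and 0.041. The labels give 2 labelling procedures, and which of them was used was not settled.

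Mean intensities were corrected with normexp (offset 50) and normalised by loess within each array, giving control spots no weight, with limma 3.58.1 and R 4.3.3. Outlier-marked spots were left out. A probe had to be well above background in 3 of 4 channels of either treatment (20587 of 39429 probes) and have unmarked spots on 3 arrays (20337). The brightest probe stood for a gene. Treatment and dye effects were fitted by lmFit and eBayes with 2 residual and 2.66 prior degrees of freedom, and p-values adjusted by Benjamini-Hochberg over 16081 genes at 0.05. The median SE was 0.063, and 4 arrays limit the precision. A sign permutation over 4 arrays cannot go below a two-sided p of 0.125. Intensities of single RNAs followed Aquantile scaling between arrays.

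The members, the lists and the motifs were chosen with earlier results of these data known. Values are given in every RNA for members called and for the 12 of widest range; others are given by range or ratio, and from each other list the called genes and the 2 of widest range. Members further described were chosen to account for each role. Symbols were updated through a RefSeq table (GRCm38.p6), by accession for 27508 probes and by synonym for 404, 3544 symbols were current, and 7973 probes stayed under their name on the array. Promoter sequences are RefSeq's on that build, and probe positions are the files' on mm9. The fit was tested on simulated data. The alternatives left out the dye effect, fitted the channels separately (statmod 1.5.0), or changed the background correction, scaling, filters, probe rules, array weights or threshold (0.1); others used the deposited log2 values or dropped each array in turn. Figures were drawn with matplotlib 3.10.9.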

Additional observations from a re-analysis of the deposited data

Results flagged for a closer look

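Within sets of 4 values, either the ratios of a member over the arrays or its intensities over the RNAs of a treatment, 10 of 106 had 1 value far from the other 3. Chance sets apart about 1 in 20 such groups, or 5.3 here.

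The ratio of array 3 stood apart in 5 members. In Socs3 it was 1.05, against -0.89 to -0.69 on the others. In Itih3 it was 0.16, against -1.48 to -1.32. Hpx had 0.70, against -0.93 to -0.69, and Fga had 0.38, against -0.75 to -0.59. In Ccl2, whose values differed little, it was 0.030, against -0.084 to -0.071.

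Single AAV_Cre RNAs stood apart in 5 more. On array 2, Lcn2 had a log2 intensity of 11.34, against 13.07 to 13.29 in the other AAV_Cre RNAs, and Il6ra had 13.91, against 14.43 to 14.49. For both genes the AAV_Null RNA of array 2 was lower still, at 11.13 and 13.71, so both RNAs of that array were low. On array 3, Il1r1 had 10.99, against 10.24 to 10.36, and Saa3 had 10.16, against 9.69 to 9.76. On array 4, Hp had 17.43, against 17.76 to 17.78. No AAV_Null RNA was apart by this measure.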

How the results depend on the processing

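The precision of 4 arrays limits every result. Of 16081 genes, 444 passed with the settings used. The number was 270 with no dye effect, 2523 with a separate-channel fit, 1403 with no background subtraction, 731 with the scanner's processed signals, 756 with median centring, 1382 with the authors' deposited log2 values, 1287 at an adjusted p of 0.10, and between 0 and 37 with 1 array left out (0 without array 2 or array 4, 13 without array 1, 37 without array 3). In limma the last fits have 1 residual degree of freedom, and 2103 and 3306 genes had an unadjusted p under 0.05 without arrays 2 and 4. Median centring moved the median of all genes to 0.025, and 528 of its 756 genes were higher, against 287 of 444.

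Members called numbered 0, but 4 with the separate-channel fit (Apcs, Itih3, Mt1 and Mt2, 16.0% of all genes called), 4 with median centring (Apcs, Itih3, Mt2 and Saa4, 4.70%), and between 0 and 2 with 1 array left out, the 2 being Itih3 and Mt2 without array 3. Other pathway genes called numbered 2, but 1 with no dye effect, 15 with the separate-channel fit, 6 with no background subtraction, 5 with median centring, 1 with no filter on dim probes, 1 with the mean of all probes, 6 with the deposited values, 6 at an adjusted p of 0.10 and 0 with any array left out. Over all genes the share called was 2.76% with the settings used. In the order of the other settings just named it was 1.68%, 16.0%, 8.72%, 4.70%, 0.991%, 2.49%, 8.66% and 8.00%. Of the 2 genes called with the settings used, Cebpa was not called with no dye effect. Trf was not called with that setting, median centring, no filter or the mean of probes.

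The members' median range was 1.19, and 1.05 with the processed signals and 1.04 with the mean of all probes. With 1 array left out it was from 0.58 (without array 3) to 1.04, with 0.69 without array 4. A range over fewer arrays can only be as wide or narrower. Over all genes the median range was 0.42, and 0.36, 0.34, 0.33 and 0.34 without arrays 1, 2, 3 and 4. The members' median log2 ratio lay between -0.15 and 0.12 over the alternatives. The AAV_Cre RNA of array 3 was highest in 11 members and in 7 with the processed signals, and the AAV_Null RNA of array 2 was lowest in 11 and in 7 with the processed signals. Of 490 fitted member ratios under alternatives, 29 had another sign, in 17 members, none called either way. Mt2, Mt1, Itih3, Apcs, Saa4 and Nfkbia kept theirs under each alternative. The fit on ratios is already paired by array, since each array held 1 RNA of each treatment, and the separate-channel fit took the array as a random block. The cause of these shifts was not tested.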
